A study of Mus musculus with 22 samples.

Results

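The genes described here encode subunits of the 5 complexes of oxidative phosphorylation. They were chosen by symbol, as every row whose name begins with Nduf and a letter a, b, c, s or v followed by a number, with Cox4 to Cox8, with Uqcr or with Atp5, or is Sdha, Sdhb, Sdhc or Sdhd. The rule took 84 of the 24421 gene rows: 37 in complex I, 4 in complex II, 8 in complex III, 18 in complex IV and 17 in complex V. No measured value entered the rule. By function 4 of these rows are not subunits, namely Atp5s, Atp5sl, Ndufa4l2 and Cox7a2l, and they were kept because the rule matched them. Ndufa4 was counted with complex I by its name, although its protein is now regarded as a subunit of complex IV.

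Gene counts came from 22 RNA-seq libraries of organoids, which are epithelial cells cultured as small multicellular bodies, from the mouse bladder. Primary urothelial organoids labelled ARID1A WT or ARID1A KO gave total RNA, a subpolysome fraction and a polysome fraction of a sucrose gradient, with 3 libraries per genotype and kind of RNA. Isogenic bladder cancer organoids gave 4 total RNA libraries, 2 labelled ARID1A WT and 2 labelled ARID1A KO. Arid1a encodes a subunit of the SWI/SNF chromatin remodelling complex. The sources used here do not give the age and strain of the animals, the agent that removed Arid1a, the deleted part or the origin of the cancer. They do not say whether replicates are separate animals or cultures, so the p-values measure only how far these libraries differ, which may be technical spread.

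Arid1a itself was read first, in CPM, which are counts divided by the size of their library, here its own total. It stood at 139, 156 and 141 CPM in WT total RNA and at 93.2, 93.8 and 106 CPM in KO total RNA, so RNA of the gene was still counted in KO. The cancer libraries labelled WT had 79.2 and 228 CPM and those labelled KO had 201 and 64.1 CPM. In the cancer set 1 library of each label therefore went against its label, and genotype there is given only as labelled.

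Oxidative phosphorylation takes place in the inner mitochondrial membrane. Complexes I (NADH dehydrogenase) and II (succinate dehydrogenase) pass electrons to ubiquinone, complex III (the cytochrome bc1 complex) passes them to cytochrome c, and complex IV (cytochrome c oxidase) passes them to oxygen. Complex V, the ATP synthase, uses the proton gradient built by complexes I, III and IV to make ATP. Most subunits are encoded in the nucleus, made on cytosolic ribosomes and imported, and many of them are very small proteins. In a sucrose gradient, mRNAs carrying several ribosomes sediment in the polysome fraction, and mRNAs carrying few or no ribosomes stay in the subpolysome fraction.

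The mRNAs were short. Over the 83 members with a GENCODE gene model, the median mRNA length was 732 nucleotides and the median coding length was 411, against 2795 and 1359 over all genes tested in the fractions. A coding length under 600 nucleotides was found for 62 members, and for 13.3% of all genes tested. Coding lengths ran from 159 nucleotides (Atp5e, the epsilon subunit of the ATP synthase) to 2184 (Ndufs1, the largest subunit of complex I). The median number of exons was 4, against 9 over all genes tested.

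Of the 84 members, 78 passed the filter on low counts in most comparisons. The other 6 did not: Cox6a2, Cox7b2, Cox8b and Cox8c, the isoform Cox4i2, and Ndufs5. Cox4i2 reached 8 counts and Cox8b reached 1 count at most. Ndufs5 was listed at 0 in all 22 libraries, so its zero gives no level. Of the 50-base windows of the Ndufs5 mRNA, 41.2% also occur in the gene BC002163, which had 599 to 778 counts in primary total RNA, 1654 to 2256 in polysomes, 146 to 322 in subpolysomes and 373 to 478 in the cancer libraries. The muscle and testis isoforms Cox7a1 (0.287 to 0.889 CPM in primary total RNA) and Cox6b2 (0.185 to 0.45 CPM) were tested but lay at the bottom of the range. Of 26 symbols searched for subunits encoded in mitochondrial DNA, alternative names included, 0 were among the gene rows, so these subunits could not be analysed.

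Per kilobase of mRNA, in WT total RNA, complexes III, IV and V were the most abundant. The median level was 72.5 CPM per kilobase over the 36 complex I genes above 5 CPM per kilobase, 69.5 over 4 in complex II, 167 over 8 in complex III, 237 over 11 in complex IV and 197 over 15 in complex V. The highest level was that of Cox4i1, the ubiquitous isoform of cytochrome c oxidase subunit 4, at 626 CPM per kilobase. Uqcrh, the hinge protein of complex III, followed at 522 CPM per kilobase and Atp5b, the catalytic beta subunit of the ATP synthase, at 456. Sdha, the flavoprotein of complex II, stood at 27.4 CPM per kilobase and its iron-sulphur partner Sdhb at 92.2.

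The coding sequences of 5 short members are shown because these mRNAs, all short, took very different positions in the gradient. Uqcr10, Uqcrh and Uqcrq encode small subunits of the same complex, Ndufa4 is a short mRNA that was higher in polysomes, and Atp5e has the shortest coding sequence of the set. They were read from the mm10 genome (GRCm38) with GENCODE M21 models. Uqcr10 lies at chr11:4701973-4704342, Uqcrh at chr4:116066965-116075071, Uqcrq at chr11:53428953-53430827, Ndufa4 at chr6:11900292-11907483 and Atp5e at chr2:174461072-174464105, all on the minus strand, and each printed run is the joined coding exons, 5′ to 3′. Capitals mark the start and stop codons. The coding lengths are 195, 270, 249, 249 and 159 nucleotides and the GC contents 54.9%, 49.6%, 57.4%, 48.2% and 51.6%, in that order.
Uqcr10: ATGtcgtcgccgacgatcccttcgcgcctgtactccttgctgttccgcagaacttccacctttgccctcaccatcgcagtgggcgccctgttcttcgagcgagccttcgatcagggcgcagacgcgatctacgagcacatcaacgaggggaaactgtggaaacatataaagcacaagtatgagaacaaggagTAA
Uqcrh: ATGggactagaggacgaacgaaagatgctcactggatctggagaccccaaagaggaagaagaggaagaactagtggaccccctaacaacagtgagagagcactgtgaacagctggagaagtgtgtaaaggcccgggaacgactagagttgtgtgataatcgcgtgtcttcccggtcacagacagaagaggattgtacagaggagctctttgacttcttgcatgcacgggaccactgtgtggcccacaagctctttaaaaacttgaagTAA
Uqcrq: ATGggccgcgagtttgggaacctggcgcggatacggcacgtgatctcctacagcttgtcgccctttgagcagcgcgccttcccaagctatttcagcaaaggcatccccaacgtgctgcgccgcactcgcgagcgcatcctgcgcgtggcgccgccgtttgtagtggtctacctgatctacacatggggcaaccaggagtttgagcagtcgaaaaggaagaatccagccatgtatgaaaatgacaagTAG
Ndufa4: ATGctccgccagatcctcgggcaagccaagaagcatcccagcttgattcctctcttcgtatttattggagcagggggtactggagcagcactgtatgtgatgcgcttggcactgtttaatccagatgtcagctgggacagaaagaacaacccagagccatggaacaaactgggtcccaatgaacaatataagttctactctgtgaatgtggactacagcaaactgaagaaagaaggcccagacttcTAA
Atp5e: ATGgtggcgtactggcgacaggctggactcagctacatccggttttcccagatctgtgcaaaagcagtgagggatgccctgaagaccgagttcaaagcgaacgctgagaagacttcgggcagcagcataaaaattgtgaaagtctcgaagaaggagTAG

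The c subunit of the ATP synthase, which forms the ring that turns in the membrane, is encoded by 3 genes. They are shown because their last 78 codons translate to the same protein, while their mRNAs took different positions in the gradient and different levels in the cancer libraries. Atp5g1 lies at chr11:96072990-96075619, Atp5g2 at chr15:102663014-102667749 and Atp5g3 at chr2:73908447-73911326, all on the minus strand of mm10. Each line is the last 237 coding bases including the stop codon, and capitals mark the 64 positions at which the 3 genes are not all alike. Over this stretch Atp5g1 and Atp5g2 share 84.8% of bases, Atp5g1 and Atp5g3 share 78.5%, and Atp5g2 and Atp5g3 share 77.2%.
Atp5g1: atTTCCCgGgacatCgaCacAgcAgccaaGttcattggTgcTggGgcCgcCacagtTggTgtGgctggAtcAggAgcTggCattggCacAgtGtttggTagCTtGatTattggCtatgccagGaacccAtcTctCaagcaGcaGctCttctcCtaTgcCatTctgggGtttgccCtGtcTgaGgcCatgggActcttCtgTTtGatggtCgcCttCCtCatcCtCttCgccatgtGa
Atp5g2: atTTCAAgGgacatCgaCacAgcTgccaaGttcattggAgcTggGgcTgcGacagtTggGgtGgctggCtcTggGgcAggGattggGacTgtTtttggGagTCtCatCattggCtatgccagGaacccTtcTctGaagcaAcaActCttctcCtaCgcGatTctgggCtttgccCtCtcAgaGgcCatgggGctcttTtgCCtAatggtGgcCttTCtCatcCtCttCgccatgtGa
Atp5g3: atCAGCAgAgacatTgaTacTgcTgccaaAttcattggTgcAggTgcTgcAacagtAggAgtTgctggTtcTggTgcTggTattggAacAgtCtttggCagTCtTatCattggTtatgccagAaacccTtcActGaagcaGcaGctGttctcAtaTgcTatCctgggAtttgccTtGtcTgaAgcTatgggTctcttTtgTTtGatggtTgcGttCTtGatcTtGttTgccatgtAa

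The libraries held 66227600 to 74605489 counts in primary total RNA, 64911189 to 76594655 in polysomes, 39245248 to 51628570 in subpolysomes and 48429672 to 55431426 in the cancer set. The members took 0.991 to 1.08% of all counts in primary total RNA, 1.58 to 1.74% in subpolysomes, 1.76 to 2.26% in polysomes and 0.909 to 1.13% in the cancer libraries. KO polysome library 3 stood apart at 2.26%, where the other 5 polysome libraries reached at most 1.93%. The subpolysome libraries were dominated by few genes: ribosomal protein mRNAs took 33.3 to 39.0% of their counts, against 4.49 to 6.76% in polysomes. All 18 urothelial markers examined were above 1 CPM in at least 1 library of each primary group, and fibroblast markers summed to at most 4.26 CPM in the primary organoids. Of the same 18, 13 were above 1 CPM in at least 1 cancer library and 3 were at 0 in all of them. Among markers of other cell types, Acta2 and the rest of the smooth muscle list summed to 5.93 to 6.74 CPM in WT total RNA and 20.3 to 22 CPM in KO, and the leukocyte list, of which Cd68 alone was above 1 CPM, to 9.84 to 11.4 and 22.3 to 24.5 CPM. The striated muscle list, in which Tnnt2 alone was above 1 CPM, summed to 131 to 158 CPM in WT and 33.8 to 38.7 CPM in KO. The part of these markers in the results below was not tested.

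The first comparison asks where in the gradient each mRNA lies. In WT organoids, 33 of 78 members were higher in polysomes than in subpolysomes and 28 were lower (edgeR quasi-likelihood test, Benjamini-Hochberg adjusted p under 0.05). Of all genes tested 63.7% were called, 32.8% higher and 30.9% lower in polysomes, so the members were divided like the genes at large, with somewhat more calls on either side. The 3 polysome and 3 subpolysome libraries did not overlap for 35 members above and 28 below, against 69% of all genes. The median log2 ratio of polysome to subpolysome was 0.15 over the members, where the median over all genes was 0.01, and the standard deviation over genes was 1.36 and 1.35. In bulk RNA such as this, fewer cells of a type and less RNA per cell cannot be told apart. Levels in the fractions are CPM scaled over the 12 fraction libraries by TMM factors, and the amount of RNA in each fraction was not measured.

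These ratios depend on the scaling. With library totals in place of TMM factors the median of all genes moved to 0.84 in WT and 0.90 in KO, and the members were then divided 52 higher and 19 lower in WT and 53 and 17 in KO. Of all genes 71.5% and 71.4% were then called. Each position is therefore relative to the other genes, and that scaling turned the direction of 13 of 78 members in WT and 12 in KO, of which the closing section gives the named genes called in either scaling.

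The subunits of complex III lay far apart. Uqcr10, a very small subunit that spans the membrane, stood at 576, 601 and 728 CPM in the WT subpolysome libraries and at 40.5, 44.7 and 36.2 CPM in the WT polysome libraries. The subpolysome level was 16-fold higher, and no polysome library came near a subpolysome library (log2 -4.00 ± 0.19, adjusted p = 2.09e-13). Uqcrh, the acidic hinge protein that helps cytochrome c dock, went the same way, with 1263, 1551 and 1751 CPM in subpolysomes against 193, 272 and 248 CPM in polysomes (log2 -2.71 ± 0.17, adjusted p = 2.37e-11). Uqcrq, of the same coding length as Ndufa4, lay on the other side: 138, 172 and 163 CPM in subpolysomes and 187, 194 and 244 CPM in polysomes (log2 0.37 ± 0.16, adjusted p = 0.0457). Its groups did not overlap, but the difference was small and close to the threshold. Of the 8 members, all were called. Those lower in polysomes also included the core protein Uqcrc2 (log2 -0.91), the Rieske iron-sulphur protein Uqcrfs1 (-0.54, but 0.28 with library totals) and Uqcr11 (-0.84). Those higher in polysomes also included the other core protein Uqcrc1 (0.90) and the small subunit Uqcrb (0.70).

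Cox7a2l, the assembly factor that joins complexes III and IV into supercomplexes, had the lowest ratio of all members. It was counted at 1727, 2271 and 2513 CPM in the WT subpolysome libraries and at 90.1, 116 and 115 CPM in the WT polysome libraries. All 3 subpolysome values were more than 10 times every polysome value, and the fitted level was 20.7-fold higher in subpolysomes (log2 -4.37 ± 0.19, adjusted p = 7.93e-14). Of its 50-base windows 19.8% also occur in other genes, so part of its counts is uncertain, whereas Uqcr10 shares none. In complex IV, 2 members of the 13 tested were higher in polysomes and 5 were lower, Cox7a2l included. Cox4i1 was at 2117, 2772 and 2907 CPM in subpolysomes and 559, 659.7 and 755 CPM in polysomes, with every subpolysome library far above every polysome library (log2 -2.01 ± 0.19, adjusted p = 7.31e-09). Cox6c (-1.59), Cox8a (-1.37) and Cox7c (-1.33) were lower in polysomes too. The 2 complex IV members higher in polysomes were Cox7b (log2 1.09 ± 0.15) and Cox5a (0.56 ± 0.12). Cox6a1, Cox6b1 and Cox7a2 did not pass, with log2 ratios of -0.07 (0.75 with library totals), 0.16 and 0.14.

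Complex I leaned to the polysome side. Of 36 tested members 19 were higher in polysomes and 10 were lower, with a median log2 ratio of 0.36. Ndufa9, a subunit that binds a nucleotide in the matrix arm, had the highest ratio of the complex: 30.4, 35.3 and 36.8 CPM in subpolysomes and 114, 141 and 137 CPM in polysomes (log2 1.90 ± 0.14, adjusted p = 2.57e-10). Ndufb2 (1.58) and Ndufa12 (1.52) followed. Ndufa4 was at 145, 155 and 187 CPM in subpolysomes and 354, 455 and 444 CPM in polysomes, so the groups did not overlap (log2 1.33 ± 0.15, adjusted p = 1.2e-07). Opposite to these was Ndufa6, a small accessory subunit, at 749, 1064 and 1003 CPM in subpolysomes and 99.7, 121 and 154 CPM in polysomes (log2 -2.94 ± 0.20, adjusted p = 6.6e-11). Ndufc1 (log2 -2.19) was low as well. The core subunits Ndufs1 and Ndufv1 were higher in polysomes by 0.39 and 0.66 on the log2 scale.

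In complex II, 3 of the 4 genes were higher in polysomes. Sdhc, a membrane anchor, was at 90.5, 99.0 and 108 CPM in subpolysomes and 293, 331 and 340.3 CPM in polysomes (log2 1.67 ± 0.13, adjusted p = 7.95e-10). Sdhb was at 95.1, 101 and 105 CPM and 239, 297 and 328 CPM (log2 1.49 ± 0.15, adjusted p = 2.46e-08), and Sdhd, the other anchor, at 80.4, 77.3 and 71.1 CPM and 173, 193 and 173 CPM (log2 1.21 ± 0.11, adjusted p = 5.23e-09). In each of these 3 genes every polysome library was above every subpolysome library. Sdha, the catalytic subunit and the longest coding sequence of the complex, was at 44.7, 53.5 and 48.9 CPM in subpolysomes and 45.8, 45.7 and 34.8 CPM in polysomes. Its groups overlapped and it did not pass (log2 -0.25 ± 0.13, adjusted p = 0.0915), and with library totals its log2 ratio turned to 0.59.

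The ATP synthase was divided inside its catalytic head. Atp5a1, the alpha subunit, was at 1377, 1494 and 1505 CPM in subpolysomes and 471, 476 and 492 CPM in polysomes (log2 -1.63 ± 0.12, adjusted p = 2.5e-10). Atp5b, the beta subunit that pairs with it in equal number, was at 414, 395 and 374 CPM in subpolysomes and 746, 701 and 747 CPM in polysomes (log2 0.86 ± 0.12, adjusted p = 1.52e-06). The alpha mRNA was thus 3.11-fold higher in subpolysomes and the beta mRNA 1.82-fold higher in polysomes, with no overlap in either. Atp5e was at 311, 316 and 380.0 CPM in subpolysomes and 88.2, 99.0 and 106 CPM in polysomes (log2 -1.81 ± 0.14, adjusted p = 6.26e-10), and Atp5l, a subunit of the membrane part, had a log2 ratio of -2.15.

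The 3 c subunit genes printed above took 3 different positions. Atp5g3 was at 129, 131 and 122 CPM in the WT subpolysome libraries and 498, 483 and 543 CPM in the WT polysome libraries, the highest ratio of any member (log2 1.97 ± 0.12, adjusted p = 9.93e-12). Atp5g1 was at 68.5, 61.2 and 78.4 CPM and 87.5, 101 and 100.3 CPM, with a small ratio that passed (log2 0.44 ± 0.16, adjusted p = 0.0202). Atp5g2 was at 138, 174 and 189.6 CPM in subpolysomes and 48.4, 56.9 and 66.2 CPM in polysomes (log2 -1.58 ± 0.17, adjusted p = 6.65e-08). The values of Atp5g1 and Atp5g2 are uncertain, because 66.0% and 100% of the 50-base windows of their gene models also occur in other genes. Among these are Gm10175 and Gm10231 for Atp5g2. The model of Atp5g2 holds its coding sequence of 441 nucleotides alone, so its 100% does not cover the untranslated ends of the mRNA. No window of Atp5g3 was shared. The sources used here do not say how reads matching several places were counted.

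**Figure D1:**
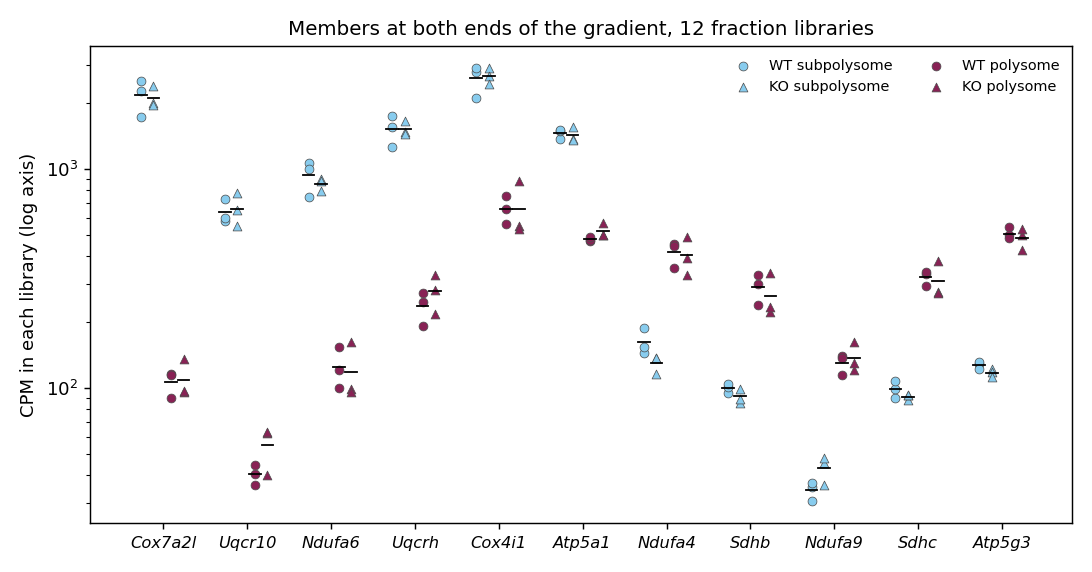
Each point is the CPM of 1 fraction library on a log axis, for 11 members, with circles for WT, triangles for KO, blue for subpolysome and purple for polysome, and short lines for group means. Cox7a2l, Uqcr10, Ndufa6, Uqcrh, Cox4i1 and Atp5a1 were higher in every subpolysome library than in any polysome library, and Ndufa4, Sdhb, Ndufa9, Sdhc and Atp5g3 were lower.

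KO organoids gave much the same counts. In KO, 34 of 78 members were higher in polysomes and 26 were lower, where 61.6% of all genes were called, 31.7% higher and 29.9% lower. Libraries did not overlap for 34 members above and 25 below, against 64.7% of all genes. Between genotypes, 32 members were called higher in polysomes in both, 26 lower in both, 15 in neither and 0 in opposite directions. The remaining 5 passed in 1 genotype alone: 1 higher and 2 lower in WT, and 2 higher in KO. Without KO polysome library 3 the KO counts were 31 and 29, where 58% of all genes were called.

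By complex, 19 of 36 members were higher in KO polysomes and 8 lower in complex I, 3 and 0 of 4 in complex II, 3 and 5 of 8 in complex III, 4 and 5 of 13 in complex IV, and 5 and 8 of 17 in complex V. Cox7a2l was at 2393, 2004 and 1957 CPM in KO subpolysomes and 95.8, 96.7 and 135 CPM in KO polysomes (log2 -4.31 ± 0.19, adjusted p = 1.11e-13). Uqcrh was at 1663, 1476 and 1446 CPM and 281, 218 and 329.9 CPM (log2 -2.50 ± 0.17, adjusted p = 8.39e-11), and Cox4i1 at 2898, 2671 and 2456 CPM and 551, 530.2 and 882 CPM (log2 -2.06 ± 0.19, adjusted p = 6.02e-09). These 3 kept to the subpolysome side with no overlap, although KO polysome library 3 had the highest polysome value of each. Atp5g3 was at 122, 119 and 112 CPM in KO subpolysomes and 499.9, 426 and 534 CPM in KO polysomes (log2 2.02 ± 0.12, adjusted p = 8.3e-12), Atp5b at 427, 382 and 379.8 CPM and 719, 748 and 850.2 CPM (log2 0.93 ± 0.12, adjusted p = 5.7e-07), and Atp5a1 at 1559.9, 1368 and 1360.0 CPM and 502, 502 and 565 CPM (log2 -1.48 ± 0.12, adjusted p = 1.2e-09). The alpha and beta subunits of the ATP synthase thus lay on opposite sides in KO too. Sdhc, at 88.3, 92.5 and 92.8 CPM in KO subpolysomes and 276, 272 and 380.3 CPM in KO polysomes (log2 1.73 ± 0.13, adjusted p = 5.42e-10), and Sdhb, at 85.8, 89.5 and 99.2 CPM and 222, 234 and 336 CPM (log2 1.5 ± 0.15, adjusted p = 2.68e-08), were higher in every polysome library. Sdha again did not pass (log2 -0.13 ± 0.13, adjusted p = 0.401, but 0.77 with library totals).

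Whether the ratio differed between genotypes was tested as an interaction term. It was called for 0 of 78 members and for 0.00747% of all genes, which is 1 gene of 13392. At an unadjusted p under 0.05 the count of members was 0 as well, and DESeq2 gave 0. The fit did not pair the fractions by replicate number, and with that block the count was 0 too. The lowest unadjusted p over the members was 0.0847 and the lowest adjusted p was 0.915. Over the 76 members above an average log2 CPM of 1, the interaction ran from -0.27 (Ndufa9) to 0.39 (Uqcr10) on the log2 scale, with a median standard error of 0.22 over all 78. For Uqcr10, at 549, 650.1 and 781 CPM in KO subpolysomes and 62.6, 40.0 and 63.1 CPM in KO polysomes, the interaction was 0.39 ± 0.23, and for Atp5e it was 0.36 ± 0.20. For Atp5g3 it was 0.05 ± 0.16 and for Cox7a2l 0.07 ± 0.23. The interaction was above 0 in 58 of the 76 members, and its median over the members was 0.07, against 0.02 over all genes. All were smaller than the error of this fit could separate from 0.

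**Figure D2:**
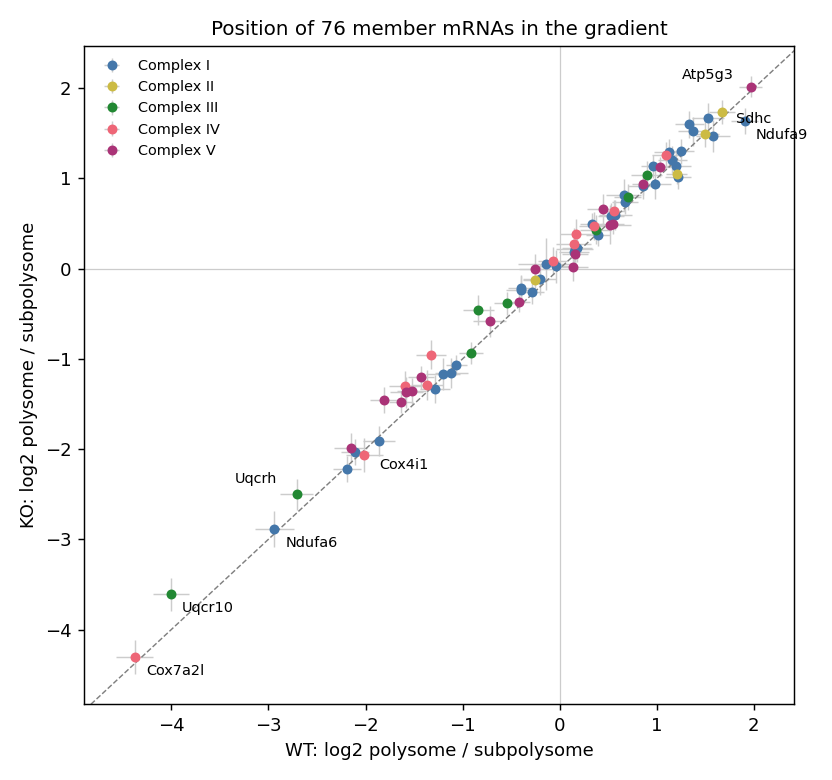
Each point is 1 of 76 members above an average log2 CPM of 1, placed by its log2 polysome to subpolysome ratio in WT (horizontal) and KO (vertical), coloured by complex, with standard errors as bars and a dashed line of equality. The points follow the line from Cox7a2l (-4.37 in WT, -4.31 in KO) to Atp5g3 (1.97 and 2.02).

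Against total RNA, most members were higher in both fractions. Here the libraries of both genotypes were used in a single contrast. In polysomes 67 of 78 members were higher than in total RNA and 7 were lower, where 69.1% of all genes were called, 34.7% higher and 34.3% lower, and libraries did not overlap for 63 above and 5 below, against 45.8%. In subpolysomes 64 were higher and 8 were lower, where 71.6% of all genes were called, 33.2% higher and 38.4% lower, and libraries did not overlap for 61 above and 5 below, against 45.7%. The median log2 ratio over the members was 1.22 for polysome to total RNA and 1.06 for subpolysome to total RNA, against -0.004 and -0.06 over all genes. Under library totals the median of all genes in subpolysomes fell to -0.99. The members were then divided 35 higher and 24 lower, where 81.1% of all genes were called. Both fractions were set against the same 6 total RNA libraries, so the comparisons are not independent.

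The members highest in polysomes relative to total RNA were Ndufb2 (log2 2.48), Ndufa4 (2.28), Uqcrb (2.21), Ndufc2 (2.12) and Ndufs4 (2.11). Those lowest were Cox7a2l (-0.98), Uqcr10 (-0.82), Sdha (-0.41), Atp5a1 (-0.41) and Ndufs1 (-0.27). In subpolysomes the highest were Ndufa6 (3.42), Cox7a2l (3.34), Cox4i1 (3.00), Uqcr10 (2.96) and Uqcrh (2.86), and the lowest Atp5g3 (-0.70), Atp5b (-0.69), Ndufs1 (-0.68) and Ndufv1 (-0.55). Cox4i1 was thus higher than in total RNA in both fractions, by 0.99 in polysomes and 3.00 in subpolysomes, while Ndufs1, the member with the longest coding sequence, was lower in both.

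Length went with these ratios over the whole transcriptome. Over 12333 genes with a gene model, the Spearman correlation of coding length with the log2 ratio to total RNA was -0.63 for polysomes and -0.38 for subpolysomes. It is a description across genes of the same libraries, and genes are not independent replicates. Within classes of coding length the members still lay above the median of all genes in polysomes: 1.11 against 0.42 under 300 nucleotides, 1.48 against 0.78 from 300 up to 600, 1.26 against 0.52 from 600 up to 1200 and 0.23 against -0.11 from 1200 up to 2400. In subpolysomes the medians were 1.78 against 1.49, 0.99 against 0.64, 0.78 against 0.06 and -0.23 against -0.21. Between both fractions the members' medians were nearer to those of their length class: the WT median was -0.78 over 20 members under 300 nucleotides, where all 254 genes of that class had -1.0, and 0.34 over 36 members from 300 up to 600, where all 1383 genes had 0.17. From 600 up to 1200 the WT medians were 0.53 and 0.50, so up to that length both medians were higher in each longer class. Over the 77 members with a model the Spearman correlation of coding length with this ratio was 0.25, and over all genes, which include longer ones than the members, it was -0.20. The pair Uqcr10 and Ndufa4 and the pair Uqcrh and Uqcrq, whose sequences are printed above, show how far mRNAs of similar length were apart.

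**Figure D3:**
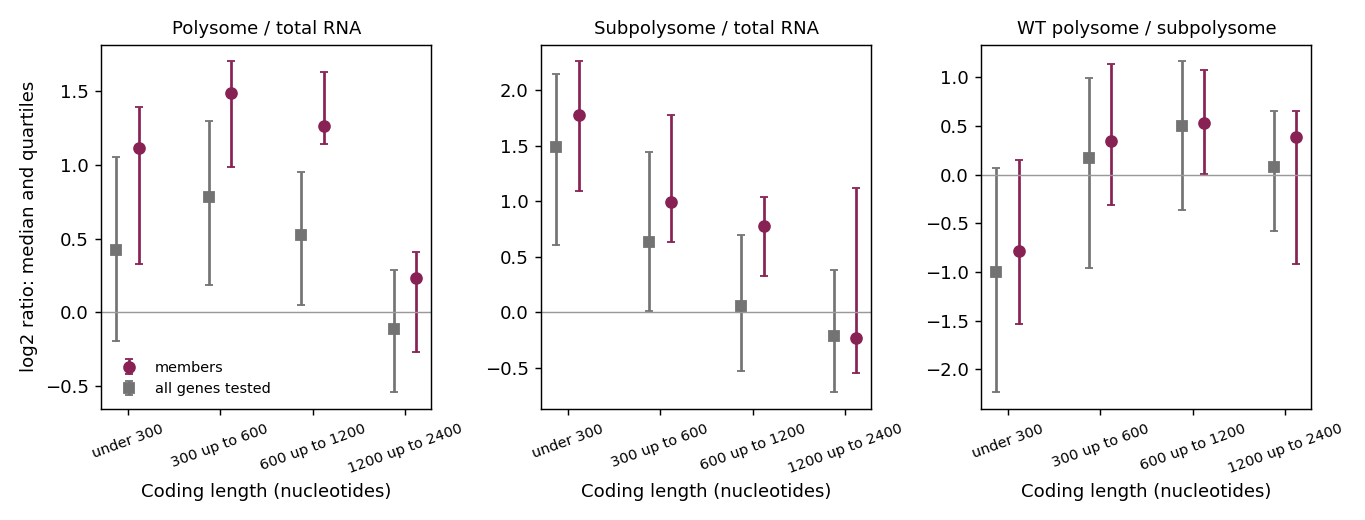
Medians (points) and quartiles (bars) of the log2 ratio of polysome to total RNA, of subpolysome to total RNA and of WT polysome to subpolysome, by class of coding length in nucleotides, for members (purple circles) and all genes tested (grey squares). Members were above all genes in every class of the polysome panel, and in the third panel the medians of both were lowest under 300 nucleotides, at -0.78 and -1.0.

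The next comparison asks how loss of Arid1a goes with the level of these mRNAs in total RNA. The shifts were small. In KO, 25 of 78 members were higher (32.1%) and 3 were lower (3.85%), where 53.2% of all genes were called, 27% higher and 26.3% lower. The share of higher members was near the background and the share of lower members was under it. Libraries did not overlap for 29 members above and 8 below, against 61.2% of all genes. The median log2 KO to WT ratio was 0.06 over the members and 0.00 over all genes, and the standard deviation over genes was 0.145 for members and 0.893 for all. All genes were not matched to the members in level, so these spreads are of unlike sets. When all 18 primary libraries shared 1 estimate of spread, 0 members were called, against 3784 genes in all. The log2 ratio of Sdha was then 0.23 (adjusted p = 0.109).

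The higher members came from complexes I, II, III and V. Sdha was at 78.8, 82.5 and 76.8 CPM in the WT libraries and 95.1, 93.9 and 95.6 in those of KO, with no overlap (log2 0.26 ± 0.04, adjusted p = 0.000305). Ndufv3, a subunit beside the NADH site, was at 70.5, 65.7 and 66.8 CPM in the WT libraries and 81.5, 80.4 and 83.8 in those of KO (log2 0.28 ± 0.04, adjusted p = 0.000243). Uqcrc1 was at 221, 208 and 202 CPM in the WT libraries and 255, 242 and 248 in those of KO (log2 0.25 ± 0.05, adjusted p = 0.000717). Every KO library of these 3 genes was above every WT library, and the fitted KO levels were 1.20, 1.22 and 1.19 times those of WT. Ndufa12 (log2 0.25 ± 0.06, adjusted p = 0.00456), Atp5e (0.23 ± 0.05, adjusted p = 0.00325) and Atp5sl (0.29 ± 0.05, adjusted p = 0.000952) were higher as well. The largest ratio was that of Ndufa4l2, a paralogue of Ndufa4 known to be induced by low oxygen, at 8.10, 4.77 and 4.94 CPM in the WT libraries and 8.52, 8.84 and 8.06 in those of KO. Its groups overlapped because of WT library 1 (log2 0.52 ± 0.18, adjusted p = 0.0277).

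Lower members included Ndufa6 and Cox5a. Ndufa6 was at 123, 124 and 129 CPM in the WT libraries and 113, 117 and 108 in those of KO (log2 -0.15 ± 0.05, adjusted p = 0.0175), and Cox5a at 133, 128 and 130.3 CPM in the WT libraries and 123, 117 and 114 in those of KO (log2 -0.14 ± 0.04, adjusted p = 0.0182). In both genes every KO library was below every WT library. By complex, 14 of 36 were higher and 2 lower in complex I, 2 and 0 of 4 in complex II, 3 and 0 of 8 in complex III, 0 and 1 of 13 in complex IV, and 6 and 0 of 17 in complex V. Complex IV had the fewest calls: Cox4i1, the most abundant of them, was at 465, 457 and 476 CPM in the WT libraries and 456, 484 and 466 in those of KO, with overlapping groups (log2 0.01 ± 0.04, adjusted p = 0.789). The difference between complexes was not tested.

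In the fractions few members passed between genotypes. In polysomes 1 of 78 members passed, Atp5e, where 28.8% of all genes were called, 14.9% higher and 13.8% lower. It stood at 88.2, 99.0 and 106 CPM in WT polysomes and 132, 103 and 157 CPM in KO polysomes, with overlapping groups (log2 0.41 ± 0.14, adjusted p = 0.0432). That call was lost without KO polysome library 1 or 3 and without any WT polysome library, and was kept without KO library 2, while 4 members had an unadjusted p under 0.05. Same-numbered polysome libraries of both genotypes deviated together, and with the replicate number as a block 4 members (5.13%) and 38.5% of all genes were called. Of these, Atp5e (log2 0.39, adjusted p = 0.00508), Ndufa4l2 (0.60, adjusted p = 0.000535) and Uqcr10 (0.41, adjusted p = 0.00524) were higher and Ndufb6, a small complex I subunit, was lower (-0.35, adjusted p = 0.0119). Ndufb6 was at 90.6, 104 and 118 CPM in WT polysomes and 78.5, 77.6 and 90.8 CPM in KO polysomes. Groups of polysome libraries did not overlap for 3 members above and 3 below, against 42.5% of all genes.

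In subpolysomes 0 of 77 members passed, where 22% of all genes were called. At an unadjusted p under 0.05 there were 6. DESeq2 called 3, Ndufa4 and Cox7c lower and Sdhd higher, where it called 24% of all genes. In subpolysomes Ndufa4 was at 145, 155 and 187 CPM in the WT libraries and 138, 115 and 138 in those of KO, and Sdhd at 80.4, 77.3 and 71.1 CPM in the WT libraries and 88.6, 87.8 and 98.0 in those of KO. In both genes the groups did not overlap, and the log2 ratios were -0.31 ± 0.12, adjusted p = 0.0546, and 0.27 ± 0.11, adjusted p = 0.081. Without WT subpolysome library 1 the count was 5, where 19.4% of all genes were called. Libraries did not overlap for 4 members above and 5 below, against 36.7% of all genes.

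**Figure D4:**
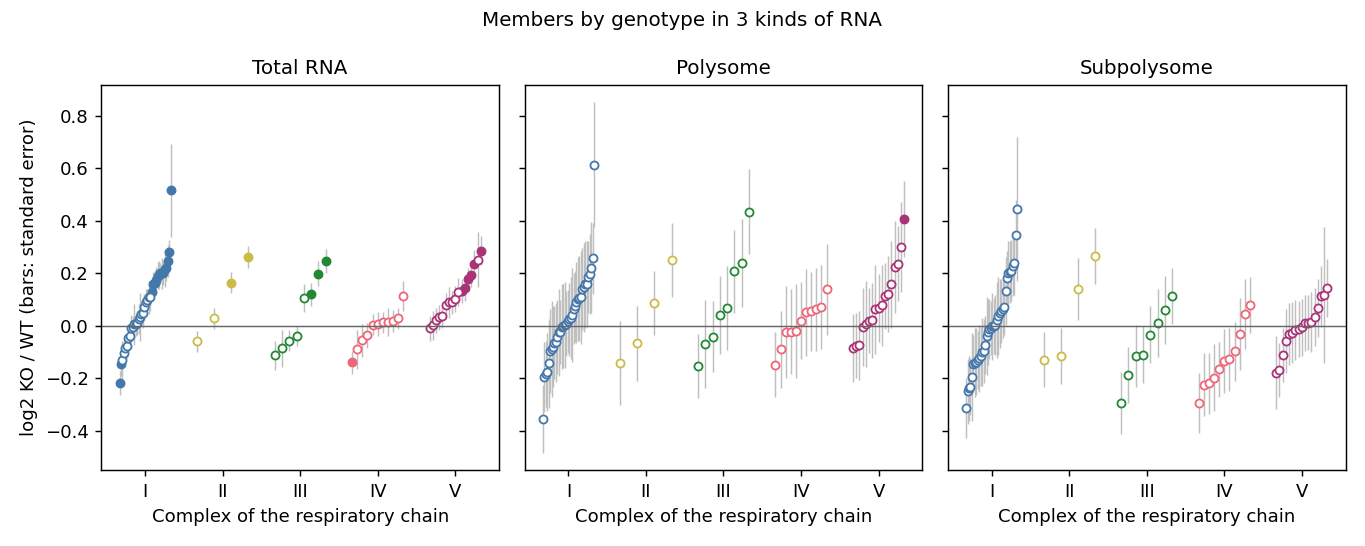
Each point is the log2 KO to WT ratio of 1 member above an average log2 CPM of 1, with its standard error, by complex, in total RNA, polysomes and subpolysomes, and filled points passed an adjusted p of 0.05. In total RNA most of the 28 filled points lie above 0 and below 0.3, in polysomes Atp5e alone is filled, and in subpolysomes none is.

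Total RNA of the cancer organoids was then set against that of the primary organoids. Here the members moved in both directions, with a smaller spread than genes at large. Among genes with a gene model the standard deviation of the log2 ratio was 1.10 over 77 members and 2.33 over all, again with sets not matched in level. In cancer 23 of 78 members were higher and 36 were lower, where 77.8% of all genes were called, 38.8% higher and 39% lower, and libraries did not overlap for 18 above and 33 below, against 64.9%. The median log2 ratio was -0.13 over the members and -0.03 over all genes. Tissue, library source and processing differ together between both sets and cannot be told apart. The fibroblast list summed to 0.230 to 14.3 CPM in the cancer libraries, and the ribosomal RNA gene Rn45s took 0.191 to 0.299% of their counts against 2.02 to 2.58% in primary total RNA. Their part in the result was not tested. Levels are CPM scaled over the 10 total RNA libraries.

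Complex I held the highest member. Ndufb4, an accessory subunit, was at 8.95, 8.22 and 8.61 CPM in WT organoids, 9.43, 8.20 and 8.65 in KO organoids, 44.3 and 51.7 in the cancer libraries labelled WT and 52.5 and 40.7 in those labelled KO (log2 2.45 ± 0.09, adjusted p = 1.3e-07). Every cancer library was above every primary one. The core subunit Ndufs1 was at 44.8, 46.4 and 43.4 CPM in WT organoids, 42.9, 39.8 and 42.3 in KO organoids, 118 and 143 in the cancer libraries labelled WT and 143 and 129 in those labelled KO (log2 1.63 ± 0.06, adjusted p = 1.55e-07). Ndufa12 (log2 1.73), Ndufa4 (1.22) and Ndufv1 (0.71) were higher too. Ndufa6 was at 123, 124 and 129 CPM in WT organoids, 113, 117 and 108 in KO organoids, 34.3 and 37.3 in the cancer libraries labelled WT and 43.2 and 33.6 in those labelled KO, below every primary library (log2 -1.67 ± 0.08, adjusted p = 3.42e-07), and Ndufa7 had a log2 ratio of -1.55. Of 36 complex I members, 9 were higher and 18 lower.

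The genes of complex II went different ways. Sdha was at 78.8, 82.5 and 76.8 CPM in WT organoids, 95.1, 93.9 and 95.6 in KO organoids, 225 and 293 in the cancer libraries labelled WT and 253 and 303 in those labelled KO (log2 1.64 ± 0.08, adjusted p = 4.74e-07). Sdhc was at 159.6, 166 and 167 CPM in WT organoids, 167, 169 and 166 in KO organoids, 86.0 and 92.1 in the cancer libraries labelled WT and 92.4 and 73.4 in those labelled KO (log2 -0.94 ± 0.07, adjusted p = 3.85e-06). The catalytic subunit was 3.11-fold higher and the anchor 1.92-fold lower, with no overlap in either. Sdhb and Sdhd did not pass, at log2 ratios of 0.02 ± 0.11 and 0.07 ± 0.08.

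In complex III, Uqcrh was at 277, 286 and 294 CPM in WT organoids, 296, 317 and 315 in KO organoids, 76.7 and 102 in the cancer libraries labelled WT and 119.8 and 92.4 in those labelled KO (log2 -1.60 ± 0.10, adjusted p = 1.76e-06). Uqcr10 was lower as well (log2 -0.78 ± 0.15), and Uqcrb (0.60 ± 0.07) and Uqcrc1 (0.42 ± 0.07) were higher. Complex IV leaned downward, with 3 higher and 9 lower of 13 and a median log2 ratio of -0.55. These 13 include Cox7a2l, which is not a subunit, and the rare isoforms Cox6b2 (-5.88) and Cox7a1 (-2.10). They leave out Ndufa4 (1.22), which was counted with complex I by its name. Cox7a2l was at 295, 307 and 299.8 CPM in WT organoids, 299.6, 306 and 295 in KO organoids, 73.6 and 86.1 in the cancer libraries labelled WT and 91.4 and 80.5 in those labelled KO (log2 -1.85 ± 0.06, adjusted p = 7.89e-08). Cox4i1 was at 465, 457 and 476 CPM in WT organoids, 456, 484 and 466 in KO organoids, 201 and 251 in the cancer libraries labelled WT and 269 and 258 in those labelled KO (log2 -0.93 ± 0.06, adjusted p = 3.09e-06). Both were below every primary library in every cancer library, as was Cox7c (log2 -1.44), while Cox5b was higher (1.14). The rare isoform Cox6b2 had 1 count in the 4 cancer libraries together and 124 in the 6 primary ones, too few for a bounded fold.

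In complex V, 8 of 17 members were higher and 6 lower. Atp5b was at 920.4, 865 and 837 CPM in WT organoids, 978, 889 and 938 in KO organoids, 1482 and 2007 in the cancer libraries labelled WT and 1888 and 1574 in those labelled KO (log2 0.95 ± 0.09, adjusted p = 2.27e-05), while its partner Atp5a1 had a log2 ratio of 0.17 ± 0.07, adjusted p = 0.0473, with overlapping groups. Atp5e was lower (log2 -1.11 ± 0.11). Of the c subunit genes, Atp5g2 was at 49.3, 52.2 and 52.0 CPM in WT organoids, 57.6, 58.8 and 58.1 in KO organoids, 142 and 159 in the cancer libraries labelled WT and 144 and 137 in those labelled KO (log2 1.42 ± 0.05, adjusted p = 7.18e-08). Atp5g1 was at 60.4, 55.2 and 55.3 CPM in WT organoids, 59.0, 57.4 and 54.2 in KO organoids, 133 and 147 in cancer labelled WT and 135 and 125 in cancer labelled KO (log2 1.25 ± 0.05, adjusted p = 2.37e-07). Atp5g3, the most abundant of the 3 per kilobase in WT total RNA, was at 289.9, 266 and 280.1 CPM in WT organoids, 294, 285 and 272 in KO organoids, 264 and 356 in cancer labelled WT and 359.8 and 319.9 in cancer labelled KO, with overlapping groups (log2 0.22 ± 0.08, adjusted p = 0.0437).

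Several of the highest members share sequence with other genes, and their values in the cancer comparison, as in the fractions, are uncertain for that reason. A shared window may lie in any other gene on either strand, so sharing alone does not show a near-identical copy. Ndufb6 (34.1%), for one, shares windows with Smim27 alone. Among the 13 tested members with over 30% of their 50-base windows found in other genes, 12 were above 0 with a median log2 ratio of 0.41. The limit of 30% was set after the values were seen. Among the 33 members with no shared window 14 were above 0 and 19 below, with a median of -0.11, and among the 31 in between 7 were above and 24 below, with a median of -0.44. Atp5g2 (100% of a model that holds the coding sequence alone), Atp5l (84.8%), Atp5g1 (66.0%) and Ndufb4 (37.0%) are in the first class. Sdha shares no window. The aligner is named for the primary libraries and not for the cancer libraries, so a difference in how such reads were placed cannot be told apart from the tissue.

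**Figure D5:**
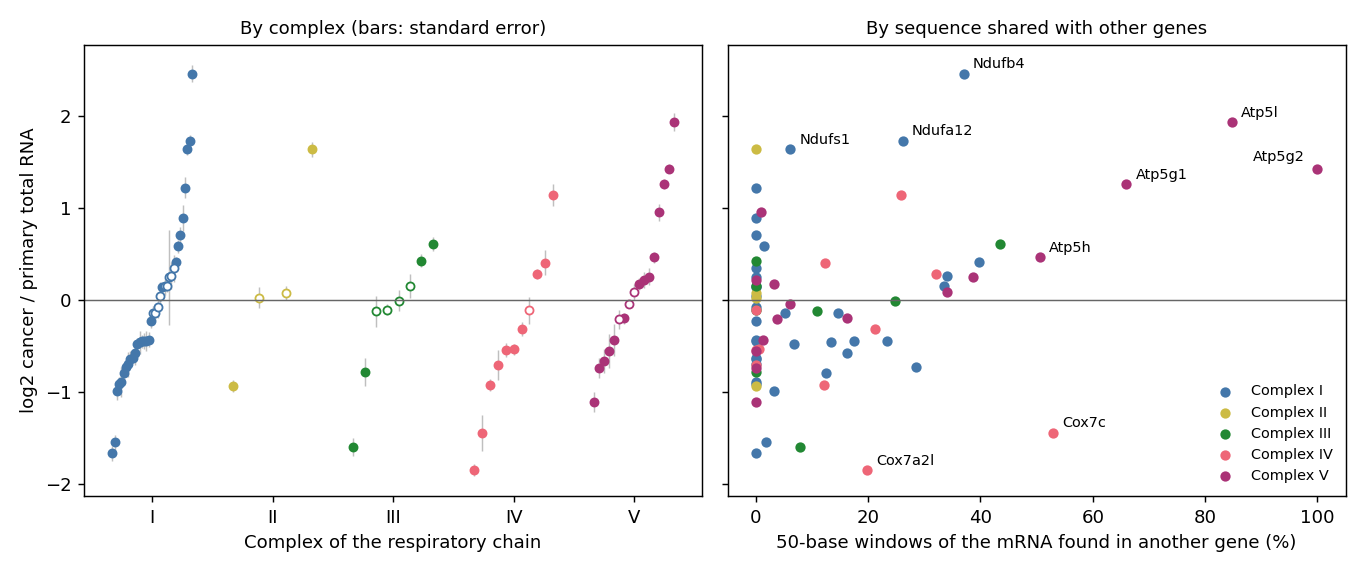
Log2 ratio of cancer to primary total RNA for members above an average log2 CPM of 1, on the left by complex with standard errors (filled points passed an adjusted p of 0.05), and on the right against the share of 50-base windows of the mRNA found in another gene. Ndufb4 is the highest at 2.45 and Cox7a2l the lowest at -1.85, and of the members sharing over 30% of windows Cox7c alone is below 0.

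Within the cancer set, libraries labelled KO and WT were compared as labelled. The test called 0 of 76 members and 0% of all genes. At an unadjusted p under 0.05 there were 0 members and 96 genes, and DESeq2 called 0 members and 10 genes. Groups did not overlap for 5 members above and 1 below, against 20.6% of all genes. The difference between labels in cancer differed from the KO effect in the primary organoids for 0 of 78 members, where 3.13% of all genes were called, 1.53% higher and 1.6% lower. Without the second cancer library labelled WT that count was 8, where 14.4% of all genes were called, and without the first labelled KO it was 7, where 16% were, so both shares of members (10.3% and 8.97%) were under the background. These are the libraries whose Arid1a level was highest. Because a library of each label went against its label, none of these comparisons can show what loss of Arid1a does in cancer.

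Other genes of mitochondrial respiration are given by counts. The lists were written from general knowledge with earlier results of these data known. For the counts in total RNA, the shares of all genes called were 27% higher and 26.3% lower in KO. In total RNA, 5 of 53 assembly factors were higher in KO and 7 were lower, with Higd1a (log2 0.49), Uqcc2 (0.44) and Coa3 (0.38) higher. Of 19 genes of pyruvate dehydrogenase and the citrate cycle 3 were higher and 8 lower. Pcx, which makes oxaloacetate from pyruvate, was higher by 1.22 ± 0.11 on the log2 scale, a far larger shift than that of any subunit, and Cs, citrate synthase, was lower (-0.18). Of 16 regulators of mitochondrial biogenesis 4 were higher, among them Ppara (log2 1.22 ± 0.36) and Tfam (0.16 ± 0.05), which packages mitochondrial DNA, and 2 were lower, among them Nrip1 (-0.38). Of 80 cytosolic ribosomal protein genes 43 were higher and 0 lower with a median of 0.12, and of 77 mitochondrial ribosomal protein genes 20 were higher and 5 lower with a median of 0.03.

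Of 6 carriers and subunits that the rule left out, 1 was higher and 1 lower in KO total RNA, 2010107E04Rik (log2 0.11) and Usmg5 (-0.20). Cyc1 (log2 -0.02), Cycs (-0.12) and the ATP synthase inhibitor Atpif1 (-0.01) did not pass between genotypes. Between fractions, Ndufab1, the acyl carrier subunit of complex I, was higher in WT polysomes (log2 1.88), as were Cycs (1.74) and Cyc1 (1.10), which are the cytochromes c and c1. Usmg5, a small membrane subunit of the ATP synthase, was lower (-3.32). Cytosolic ribosomal protein mRNAs, also short, lay far to the subpolysome side, with 3 higher and 78 lower of 81 and a median of -3.58, whereas 32 of 38 proteasome genes were higher and 2 lower with a median of 1.18. Of all genes 32.8% were higher and 30.9% lower in WT polysomes. In cancer Cycs (2.68) and Lrpprc (2.59), which stabilises mitochondrial mRNAs, were among the highest, 13 of 19 citrate cycle genes were higher and 3 lower, and 45 of 77 mitochondrial ribosomal protein genes were higher and 16 lower. Of all genes 38.8% were higher and 39% lower there.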

How the data were processed

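RNA-seq of 22 mouse bladder organoid libraries was used. The deposited values were raw whole-number counts per gene symbol, with no normalization. Reads were counted with HTSeq on mm10, per the submitters' processing notes, which name Bowtie for the 18 primary libraries only. For versions, annotation, strand and the treatment of reads matching several places: not given in the sources used here.

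Each comparison was fitted over all genes in R 4.3.3 with edgeR 4.0.16 (TMM factors, filterByExpr, then the quasi-likelihood F test of glmQLFTest) and Benjamini-Hochberg adjusted p under 0.05; members were read off the whole table. A standard error is the log2 ratio divided by the root of its F value. Genotypes were compared on the 6 libraries of a kind of RNA, the fractions on 12 libraries, fractions against total RNA on 18, and cancer against primary on 10. The scripts were tested on simulated counts. Pairs of libraries of a group differed by a chi-square of 11.9 to 247 times its degrees of freedom, so none was counted as a copy.

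Alternatives were DESeq2 1.42.0 and its size factors (RLE), no filter, the replicate number as a block, all 18 libraries in 1 fit, leaving out each library, and leaving out the 4 rows that are not subunits. Library totals without TMM and a crossed cancer pairing were added after seeing the data. Same-numbered WT and KO polysome libraries correlated in their deviations from group means at 0.186, 0.197 and 0.249, the labels' numbers being the source of the pairing; the correlations in total RNA (0.145, 0.037 and -0.066) and subpolysomes (0.034, 0.036 and 0.069) did not all pass 0.1.

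The members and lists were chosen with earlier results of these data known. Named genes were, per comparison, the up to 6 highest and 6 lowest called members whose libraries did not overlap, a fixed set of subunits, Arid1a, Cyc1, Cycs and Atpif1, and of each other list the up to 3 genes with the smallest p. Outside this rule, Ndufs5, Ndufb6, Uqcrq, Cox5b and Cox6c, and in single comparisons Uqcrb, Uqcr10, Cox7b and Ndufab1, were chosen after their values were seen. Gene models and sequences came from GENCODE M21 (GRCm38). Protein length was planned as the measure of size; coding length was used, with no table of proteins at hand. Values of 1 member named by the rule are not reported here.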

Additional observations from a re-analysis of the deposited data

How the results depend on the processing

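Counts of members between genotypes moved with the setting. In total RNA, 0 were called with all 18 libraries in 1 fit and 22 to 31 with each library left out. Of all genes 27.4% and 46 to 50.5% were called in these settings. In polysomes the count of 1 became 3 with library totals, 4 with DESeq2, 4 with no filter, 4 with the replicate block, 3 with all 18 libraries, and 0 to 3 with a library left out. The share of members called was at most 5.13% in these settings, where 21.5 to 38.5% of all genes were called. In subpolysomes the count of 0 became 1 with library totals, 3 with DESeq2, 4 with no filter, 5 with the replicate block, 2 with all 18 libraries, and 0 to 5 with a library left out. The share of members called was at most 6.49% there, where 15.3 to 29.9% of all genes were called. For the difference of the KO effect between cancer and primary the count was 1 with DESeq2 and 0 to 8 with a library left out. Of all genes 12.5% and 0.506 to 16% were called. The other counts of members stayed within 1.5 times: with a library left out they were 57 to 63 for polysome against subpolysome in WT, 57 to 61 in KO, 73 to 75 for polysome and 71 to 73 for subpolysome against total RNA, 52 to 63 for cancer against primary, and 0 for the interaction and for the cancer libraries as labelled. The replicate block gave 29 in total RNA and, apart from polysomes and subpolysomes between genotypes, moved no count by over 1.5 times. Between genotypes the correlations all passed 0.1 for polysomes alone, and each subpolysome library correlated best with its own number, as a hint. Polysome and subpolysome libraries of a genotype also correlated best by number, at 0.193, 0.064 and 0.093 in WT and 0.073, 0.063 and 0.130 in KO. The reported fits leave this pairing out. With it as a block, 64 members were called in WT, 62 in KO and 0 for the interaction, against 65.6%, 63.6% and 0.0896% of all genes. In the cancer set same-numbered libraries deviated in opposite directions (-0.429), and the crossed pairing called 0 members, as did the labelled one.

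Library totals turned the direction of named genes. For polysome against subpolysome in WT the log2 ratios became 0.43 for Ndufa1, 0.59 for Sdha, 0.28 for Uqcrfs1, 0.75 for Cox6a1 and 0.11 for Atp5j2, and in KO 0.66 for Ndufa1, 0.77 for Sdha, 0.50 for Uqcrfs1, 0.42 for Uqcr11 and 0.29 for Atp5j2. For subpolysome against total RNA they became -0.16 for Ndufa4, -0.57 for Ndufa4l2, -0.54 for Sdhb, -0.87 for Sdhd, -0.54 for Cox5a, -0.17 for Cox6a1, -0.25 for Atp5g1 and -0.84 for Cycs. In cancer against primary, Ndufa4l2 turned to -0.90 without the first cancer library labelled KO and Uqcrc2 ranged from -0.21 without the second labelled WT to 0.14 without the first. The cause was not tested, beyond the shift of all genes that library totals bring by construction. Depth was ample for all but the rarest isoforms.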

Other observations

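Promoters of the members held several short motifs. Of the 84 members 66 were in the RefSeq table of promoters (GRCm38.p6, from 250 bases before to 50 after the start), searched on both strands. GCGCATG, the core of the NRF1 site, was in 13 of the 66 (19.7%), against 4.41% of all genes in the table and 7.72% of the genes tested in the fractions. CCGGAAG, a core of ETS factor sites, was in 16 (24.2%), against 9.93% and 19.6%, and AAGATGG, a core of the YY1 site, was in 10 (15.2%), against 7.28% and 8.32%. A match is a description of the letters, not a bound site, and expressed genes held each motif more often than the table at large.

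Of 35 members with a log2 polysome to subpolysome ratio below 0 in WT, 27 were also below 0 in cancer against primary and 8 above, and of 41 with a ratio above 0, 25 were above 0 in cancer and 16 below. These counts leave out the rare isoforms Cox6b2 (1.81 and -5.88) and Cox7a1 (-0.20 and -2.10), whose levels were at the bottom of the range. Over the 76 members left, both log2 ratios had a Pearson correlation of 0.38 and a Spearman correlation of 0.38. From the 13254 genes set beside them no rare gene was left out in this way, so the sets are unlike. Over those genes the Pearson correlation was 0.03. It is given as a description across genes that share libraries, mRNA length and gene copies, with no test. Cox7a2l, Ndufa6, Uqcrh and Uqcr10 were low in both, whereas Atp5l (-2.15 and 1.93), Atp5g2 (-1.58 and 1.42) and Atp5a1 (-1.63 and 0.17) were low in polysomes and above 0 in cancer. The cytosolic ribosomal protein genes were low in both too, with medians of -3.58 and -0.77.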
